A study of Mus musculus with 13 samples.

Results

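The Meis, Pbx and Pknox genes of the mouse were followed through medulloblastomas and through 2 normal tissues of the developing hindbrain. The set was every probe set that the platform annotation assigns to Meis1, Meis2, Meis3, Pbx2, Pbx3, Pbx4, Pknox1 or Pknox2. This gave 20 probe sets for 8 genes, of 45037 probe sets that are not controls and 18193 genes. A probe set is the group of short probes on the array that together measure 1 transcript or transcript family, and its intensity is the unit of every value here. An intensity depends on the probes as well as on the transcript, so levels are compared between samples and never between genes.

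MEIS, PBX and PKNOX proteins (the last are also called PREP) are homeodomain transcription factors of the TALE class, named for extra residues in a loop of the homeodomain. MEIS and PKNOX proteins each bind PBX proteins, and the pair binds DNA with higher specificity than either alone, often together with a HOX or engrailed protein. Binding to MEIS or PKNOX also moves PBX proteins into the nucleus and stabilises them. In the hindbrain these complexes work with HOX proteins to give each segment its identity, and MEIS1 is also known from granule neuron precursors of the cerebellum.

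The samples were 6 primary medulloblastomas, tumours of the hindbrain, from Ptch1(+/-) mice, in which 1 copy of the hedgehog receptor gene Ptch1 is inactivated, and 7 normal samples of wildtype mice. The normal samples comprised 3 of granule neuron precursor cells from the postnatal cerebellum, labelled P7 for the day of age (GNPC), and 4 of dorsal brainstem from embryos, labelled E16.5 (DBS). No animal received treatment, each sample came from its own mouse, and each was hybridised to 1 array. The labels give neither the strain nor the age of the tumour mice, and they do not say how the GNPC were isolated. A group of Ctnnb1 tumours was not analysed here.

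The median intensity of an array ranged from 91.4 to 117.7, and with so few arrays per group their number sets how precise each value is. Ptch1 itself was at 3453.7 to 11575 in the tumours on its brightest probe set, 5563.3 to 6972.4 in GNPC and 5569.3 to 6133.5 in DBS, and whether that probe set lies in the inactivated part is not given, so it does not check the genotype. The markers of granule neuron precursors followed the labels, with summed intensities of 49970.4 to 56154.1 in the tumours, 43575.3 to 47613.6 in GNPC and 15360.4 to 20653.7 in DBS over 9 genes. Bright probe sets weigh most in such a sum, here Zic1 with means of 19704, 20141 and 15335. Single genes differed more: Atoh1 had means of 8637, 1048 and 102, and Neurod1 of 10471, 16103 and 1310. The GNPC samples also held markers of other cerebellar cells: the summed intensity of 8 Purkinje cell genes was 44113.7 to 53265 in GNPC, 2485.6 to 14653.2 in the tumours and 11421.6 to 12817.1 in DBS. Markers of dividing cells were highest in the tumours (35564.4 to 46164.7 over 5 genes) and lowest in DBS (3045 to 3934.3). In such bulk samples, fewer cells of a type and less RNA per cell cannot be told apart.

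Differences were tested on log2(intensity + 18) with limma over 12266 genes. Each had a probe set that stood above its own array's median on at least 3 of the 13 arrays. The brightest probe set that passed this filter stood for its gene. A gene counts as called higher or lower where its p, adjusted by Benjamini-Hochberg, was under 0.05 and its log2 difference was 1 or more in size, a 2-fold change. Of the 8 genes, 7 entered the test, and so did 16 of the 20 probe sets. Pbx4 did not, because neither of its probe sets passed the filter.

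Between tumours and GNPC, limma called 1 of the 7 tested genes higher (Pbx3) and 2 lower (Meis2 and Pknox2), while 20.8% of all genes were called, 6.60% higher and 14.2% lower. Against DBS, 0 were called higher and 2 lower (Meis2 and Pknox2) in the tumours, where 36.3% of all genes were called, 15.5% higher and 20.9% lower. Between GNPC and DBS, 0 were called higher and 3 lower (Meis2, Pbx3 and Pknox2) in GNPC, where 18.4% of all genes were called, 8.73% higher and 9.68% lower. At an unadjusted p under 0.05, the counts were 1 higher and 2 lower, 0 higher and 3 lower, and 0 higher and 4 lower. In each family 1 gene was called in at least 1 comparison, while Meis1, Meis3, Pbx2 and Pknox1 were called in none on their brightest probe sets. The members' median log2 differences were -0.06, -0.15 and -0.36 in these comparisons, beside -0.03, 0.00 and 0.04 over all genes tested.

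**Figure D1:**
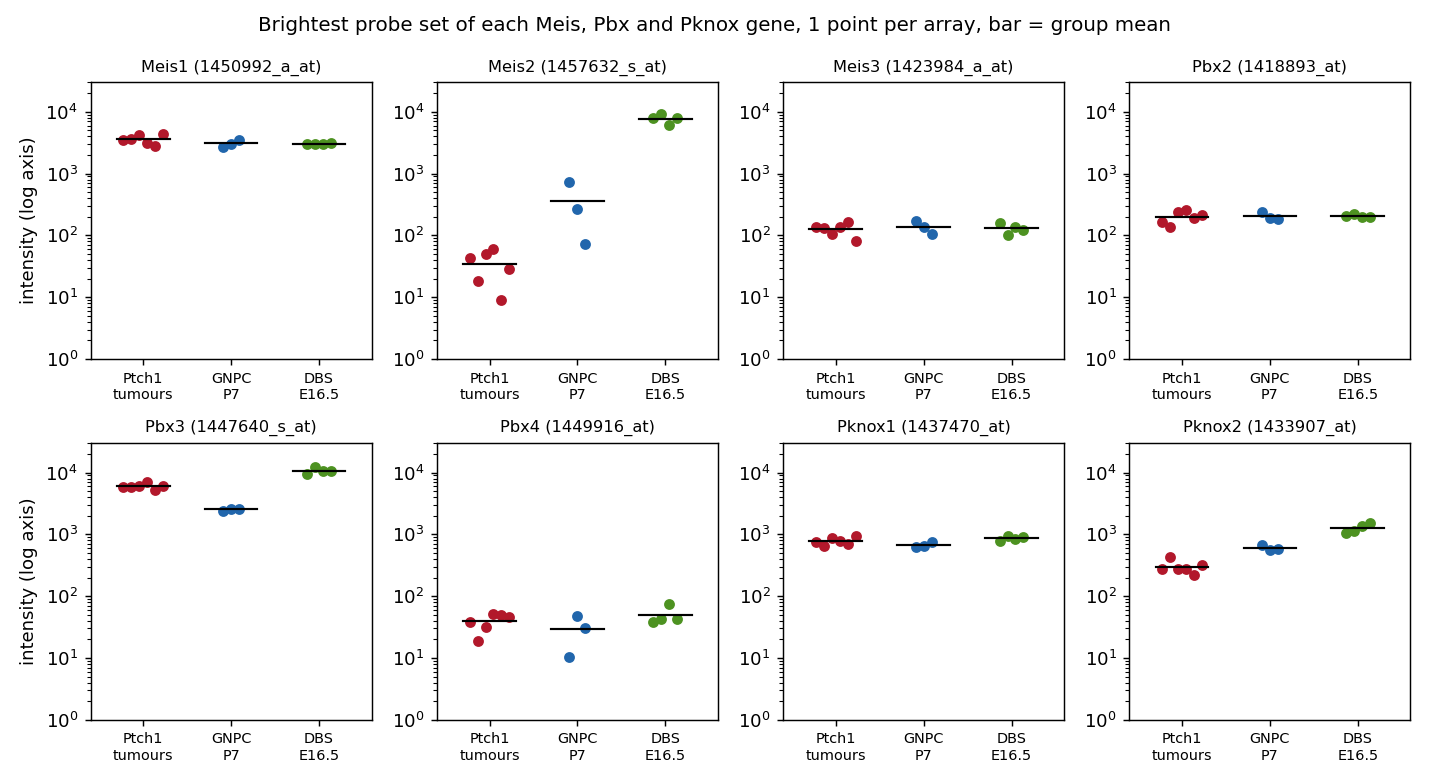
Intensity (log axis) of the brightest probe set of each of the 8 genes, with 1 point per array and a bar at each group's mean, in 6 Ptch1 tumours, 3 GNPC and 4 DBS samples. Meis2 runs from 9.1 in 1 tumour to 9058.9 in 1 DBS sample, Pbx3 and Pknox2 separate all 3 groups, and the groups of Meis1, Meis3 and Pbx2 overlap.

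The plot of the brightest probe sets shows the contrast within the Meis family, which is where the set varied most. Meis1, a MEIS protein known as a cofactor of HOX proteins in leukaemia and in development, was bright in all 13 samples on probe set 1450992_a_at. Its intensity was 2817.1 at the lowest, 3510.05 at the median and 4442.7 at the highest in the tumours. In the 3 GNPC samples it was 2737.9, 3035.6 and 3540.3, and in the 4 DBS samples 2978.8, 3019.1, 3007.2 and 3146.2. The groups overlapped in every comparison on this probe set. Tumours minus GNPC was 0.21 ± 0.13 (SE) on the log2 scale (limma, adjusted p = 0.222), and tumours minus DBS was 0.23 ± 0.12 (adjusted p = 0.109). GNPC minus DBS was 0.02 ± 0.15 (adjusted p = 0.909), a difference whose sign turned when arrays were brought to 1 median (-0.095).

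The other Meis1 probe sets told DBS apart from the remaining samples. On 1459423_at the tumours ranged from 276.3 through a median of 455.05 to 665.2. The GNPC samples were at 307.7, 393 and 404.4, and the DBS samples at 74.8, 147, 82 and 99.3. All 9 tumour and GNPC values therefore lay above all 4 DBS values. Limma called this probe set higher in the tumours than in DBS (log2 difference 2.01 ± 0.22, 4.02-fold, adjusted p = 1.07e-06 over 25881 probe sets). It was also called higher in GNPC than in DBS (1.73 ± 0.26, 3.31-fold, adjusted p = 0.000103). Only 1 of the 4 DBS values was above its array's median, so 1459423_at passed the filter through the tumours and GNPC. That favoured higher calls against DBS in advance. On 1443260_at the tumours ranged from 1286.7 to 2406, the GNPC samples were at 1331.2, 2042.7 and 1866.5, and the DBS samples at 818.5, 1068.1, 936 and 950.5. That probe set had the same order without reaching a 2-fold change, with tumours minus DBS at 0.95 ± 0.16 (adjusted p = 0.000117) and GNPC minus DBS at 0.86 ± 0.19 (adjusted p = 0.00275).

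Meis1 therefore gave different answers against DBS depending on the probe set. The log2 ratio of 1459423_at to 1450992_a_at within an array was higher by 1.78 in the tumours than in DBS, and that of 1443260_at to 1450992_a_at by 0.73. Two-sided exact permutation gave p = 0.00476 for each, which is the lowest value possible with 6 against 4 samples, with an adjusted p of 0.0321 over 27 such probe set comparisons, which were chosen after the values had been seen. Between GNPC and DBS the same ratios differed by 1.71 and 0.84 (exact permutation p = 0.0286, adjusted p = 0.0857 for each). When the probe sets of a gene were averaged instead, Meis1 was called higher in the tumours than in DBS (log2 difference 1.06). The log2 ratio of 3' to 5' control probe sets, a measure of RNA integrity, ranged from 1.333 to 1.592 in the tumours, 1.108 to 1.194 in GNPC and 1.229 to 2.426 in DBS, and its part in this disagreement was not tested.

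Meis2, the paralog of Meis1, had the widest range of the set and was bright in the brainstem. On probe set 1457632_s_at the DBS samples were at 7820.4, 9058.9, 6227.1 and 7989.1. The GNPC samples were at 729.4, 269.7 and 71.7, and the tumours ranged from 9.1 through a median of 35.9 to 60.2. The groups did not overlap, but the lowest GNPC sample stood close to the highest tumour. All 6 tumours and the third GNPC sample were below their own array's median, so their values lie in the dim range of the array.

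Limma called Meis2 lower in the tumours than in DBS (log2 difference -7.29 ± 0.45, 156.1-fold, adjusted p = 2.64e-09). It was also called lower in the tumours than in GNPC (-2.44 ± 0.49, 5.42-fold, adjusted p = 0.000846) and in GNPC than in DBS (-4.85 ± 0.53, 28.8-fold, adjusted p = 6.4e-06). The size of these differences depends on the constant added before the logarithm, since the tumours are dim. Tumours minus DBS was -7.99 with 1 added and -5.87 with 100 added, and tumours minus GNPC was -3.00 and -1.49. The first GNPC sample also weighed on the result: without it tumours minus GNPC was -1.70, and without the third GNPC sample -3.23. The calls held in each of these settings.

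The remaining 3 Meis2 probe sets were called lower in the same direction in all 3 comparisons. On 1417129_a_at the DBS samples were at 4058.2 to 5032.2, the GNPC samples at 441.5, 147.9 and 5.9, and the tumours at 6.9 to 34.5. There the third GNPC sample was below the lowest tumour, and tumours minus GNPC was -1.71 ± 0.60 (limma, adjusted p = 0.0307). On 1447861_x_at the DBS samples were at 1550 to 1854, the GNPC samples at 201.6, 31.5 and 42.9, and the tumours at 1.2 to 26.4. On 1440091_at the DBS samples were at 639.6 to 944.9, the GNPC samples at 104.3, 60.8 and 54, and the tumours at 1.5 to 35.5. Tumours minus DBS was -6.97, -6.08 and -4.38 on these probe sets, and GNPC minus DBS was -5.27, -4.30 and -3.13. None of the Meis2 probe sets was above the array median on 3 arrays outside DBS, so each passed the filter only through DBS. That favoured lower calls against DBS in advance. On 1440091_at every tumour and GNPC value was below its array's median, so tumours minus GNPC there compared dim values. By the manufacturer's naming, the endings _s_at and _x_at mark probe sets that can also bind transcripts of other genes, and 1440091_at has no such ending.

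**Figure D2:**
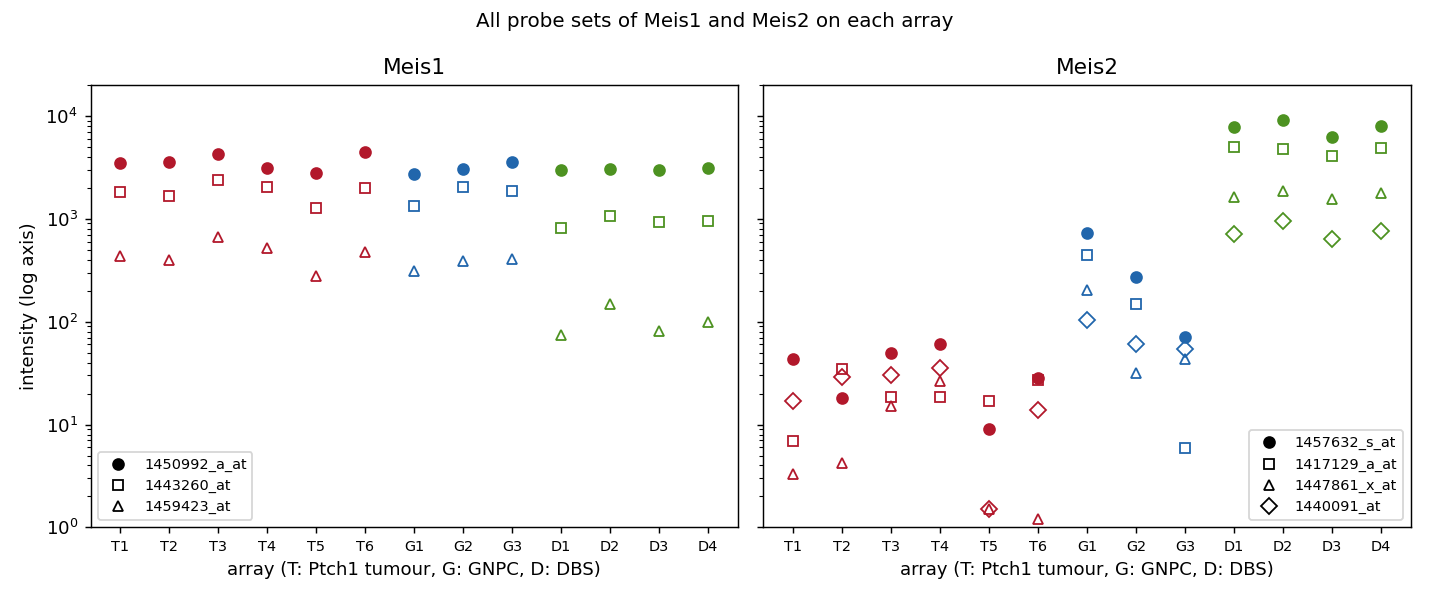
Intensity (log axis) of the 3 Meis1 and 4 Meis2 probe sets on each of the 13 arrays (T, Ptch1 tumours 1 to 6; G, GNPC 1 to 3; D, DBS 1 to 4), with 1 symbol per probe set. Meis1 1450992_a_at stays between 2737.9 and 4442.7 on all arrays while 1459423_at drops to 74.8 to 147 in DBS, and all Meis2 probe sets are high in DBS, uneven in GNPC and at most 60.2 in the tumours.

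The 3 GNPC samples differed among themselves in Meis2, by 10.2-fold from the lowest to the highest on 1457632_s_at, where the 4 DBS samples differed by 1.46-fold. The plot of every Meis1 and Meis2 probe set shows the first GNPC sample highest on all 4 Meis2 probe sets. Of 12 lists of cell type markers, 4 had summed intensities that fell in the same order from GNPC 1 to GNPC 3 as Meis2 on 1457632_s_at. For oligodendrocytes the sums were 31650.7, 30039.5 and 16950.1, with all 7 tested genes in that order, and for microglia and macrophages 5064.4, 4810.3 and 3971.2, with 4 of 6. For brainstem neurons they were 5957.9, 4547.6 and 4167.8, with 3 of 9 genes in that order (Tac1, Lmx1b and Slc17a6), while Slc6a5 and Lbx1 were not. For unipolar brush cells and cerebellar nuclei they were 1544.8, 1351 and 1037.4, with Lhx9 in that order and Eomes, the other tested gene, highest in GNPC 2. These genes were picked out after their values were seen. The share of all genes in this order was not computed, so these counts have no background. Meis2 1447861_x_at was itself not in this order, with 201.6, 31.5 and 42.9 in GNPC 1 to 3. Across the groups the brainstem neuron sum was 1475 to 4012 in the tumours, 4167.8 to 5957.9 in GNPC and 18912.4 to 21142.4 in DBS. In the tumours against DBS 8 of its 9 tested genes were called lower, beside 20.9% of all genes. Among them, Prph, Lmx1b and Slc18a3 were below the array median on every array outside DBS. Isl1 was so on every array outside DBS but tumour 5, where it was at 695.7, above every DBS value. All of these passed the filter only through DBS, which favoured lower calls against DBS in advance. The part of the listed cell types in the Meis2 values was not tested.

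Promoter windows of this pair are shown because Meis1 and Meis2 are the paralogs whose intensities separated most. Each is the window that the RefSeq promoter table, build GRCm38.p6, gives for the gene, from 250 bases before to 50 bases after 1 annotated transcript start, with CG dinucleotides in capitals. Both windows lie inside the annotated span of the gene, so they do not cover its outermost start.
Meis1, chr11:19018920-19019219, minus strand: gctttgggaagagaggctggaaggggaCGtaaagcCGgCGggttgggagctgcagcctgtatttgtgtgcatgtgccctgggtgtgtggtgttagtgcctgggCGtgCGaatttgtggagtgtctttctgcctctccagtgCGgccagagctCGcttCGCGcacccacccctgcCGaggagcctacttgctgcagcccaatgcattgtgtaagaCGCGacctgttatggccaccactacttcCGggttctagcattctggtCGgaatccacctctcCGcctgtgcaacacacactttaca
Meis2, chr2:116064570-116064869, minus strand: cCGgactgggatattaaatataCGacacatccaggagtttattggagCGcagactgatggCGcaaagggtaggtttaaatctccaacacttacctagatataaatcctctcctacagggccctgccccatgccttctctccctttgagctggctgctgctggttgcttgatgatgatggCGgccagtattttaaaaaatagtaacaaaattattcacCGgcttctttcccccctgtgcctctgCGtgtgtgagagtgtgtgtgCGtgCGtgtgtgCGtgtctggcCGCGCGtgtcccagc
The Meis1 window holds 15 CG dinucleotides at 58.3% GC and the Meis2 window 13 at 51.0% GC, beside medians of 7 CG dinucleotides and 52.7% GC over 32841 windows of the table. The RefSeq table held windows for 5 of the 8 genes (Meis1, Meis2, Meis3, Pbx2 and Pbx4) and none for Pbx3, Pknox1 and Pknox2. Searched on both strands, 0 of these 5 windows held TGACAG (the core site of MEIS and PKNOX proteins, in 19.2% of all windows), TGATNNAT (a composite site of PBX and HOX proteins, 8.85%) or the composite site of PBX and MEIS proteins (0.222%), which contains TGACAG. That says only that these letters are not in these windows.

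Meis3, the third MEIS gene, was dim on its single probe set, 1423984_a_at. The tumours ranged from 82.1 through a median of 133 to 167. The GNPC samples were at 171.9, 134.4 and 104.5, and the DBS samples at 158.6, 100, 135.3 and 124.4. The 3 groups overlapped throughout. Its log2 differences were -0.11 ± 0.22 for tumours minus GNPC, -0.05 ± 0.20 for tumours minus DBS, and 0.06 ± 0.24 for GNPC minus DBS (limma, adjusted p = 0.706, 0.844 and 0.85), and all 3 signs turned under other array scalings.

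In the Pbx family, Pbx3 separated the 3 groups without overlap and was the 1 member called higher in the tumours. PBX proteins are the partners that MEIS and PKNOX proteins share. On probe set 1447640_s_at the tumours ranged from 5287.8 through a median of 5920.1 to 7000. The GNPC samples were at 2411.8, 2608.9 and 2616.7, and the DBS samples at 9400.5, 12351.4, 10778.2 and 10662.4. The tumours thus lay between the normal tissues, above every GNPC sample and below every DBS sample. Limma called Pbx3 higher in the tumours than in GNPC (log2 difference 1.23 ± 0.10, 2.35-fold, adjusted p = 5.49e-07). It was called lower in GNPC than in DBS (-2.07 ± 0.11, 4.20-fold, adjusted p = 7.31e-09). Tumours minus DBS was -0.84 ± 0.09 (adjusted p = 1e-06), past the p threshold but short of a 2-fold change.

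The second Pbx3 probe set, 1421193_a_at, had the same order of groups. The tumours ranged from 715.1 to 937, the GNPC samples were at 470.6, 383.3 and 421.7, and the DBS samples at 1601.5, 1683.8, 1808.7 and 1846.8. Which comparison crossed the 2-fold mark differed from the first probe set. Tumours minus GNPC was 0.94 ± 0.13 (limma, adjusted p = 4.06e-05, not called), tumours minus DBS was -1.05 ± 0.12 (adjusted p = 1.36e-06, called) and GNPC minus DBS was -1.99 ± 0.14 (adjusted p = 9.19e-08, called).

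Pbx2 was steady on its brightest probe set, 1418893_at. The tumours ranged from 139 through a median of 200.95 to 253.9, the GNPC samples were at 243, 192.9 and 182.8, and the DBS samples at 204.2, 219.2, 199 and 196.2. The groups overlapped, and its log2 differences were -0.06 ± 0.18, -0.06 ± 0.17 and 0.00 ± 0.20 for tumours against GNPC, tumours against DBS and GNPC against DBS (limma, adjusted p = 0.801, 0.759 and 0.994), with signs that turned under other scalings. A dimmer probe set, 1449261_at, was called lower in the tumours than in DBS (-1.18 ± 0.23, adjusted p = 0.000389). Its tumour values were 28.5 to 79.7 and its DBS values 143.4, 125.3, 123.7 and 150.7, while its GNPC values were 85.5, 57.2 and 73.4. All of its tumour and GNPC values were below their array's median. It thus passed the filter only through DBS, which favoured a lower call against DBS in advance. The last Pbx2 probe set, 1418894_s_at, was called in no comparison.

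Pbx4 was below the array median on all 13 arrays. On 1449916_at the tumours ranged from 18.5 to 52.4, the GNPC samples were at 10.5, 47.7 and 30.4, and the DBS samples at 38.5, 43.5, 73.5 and 42.2. Its other probe set, 1454912_at, was at 2.6 to 53 over all arrays. At these intensities a difference in Pbx4 could not be tested.

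**Figure D3:**
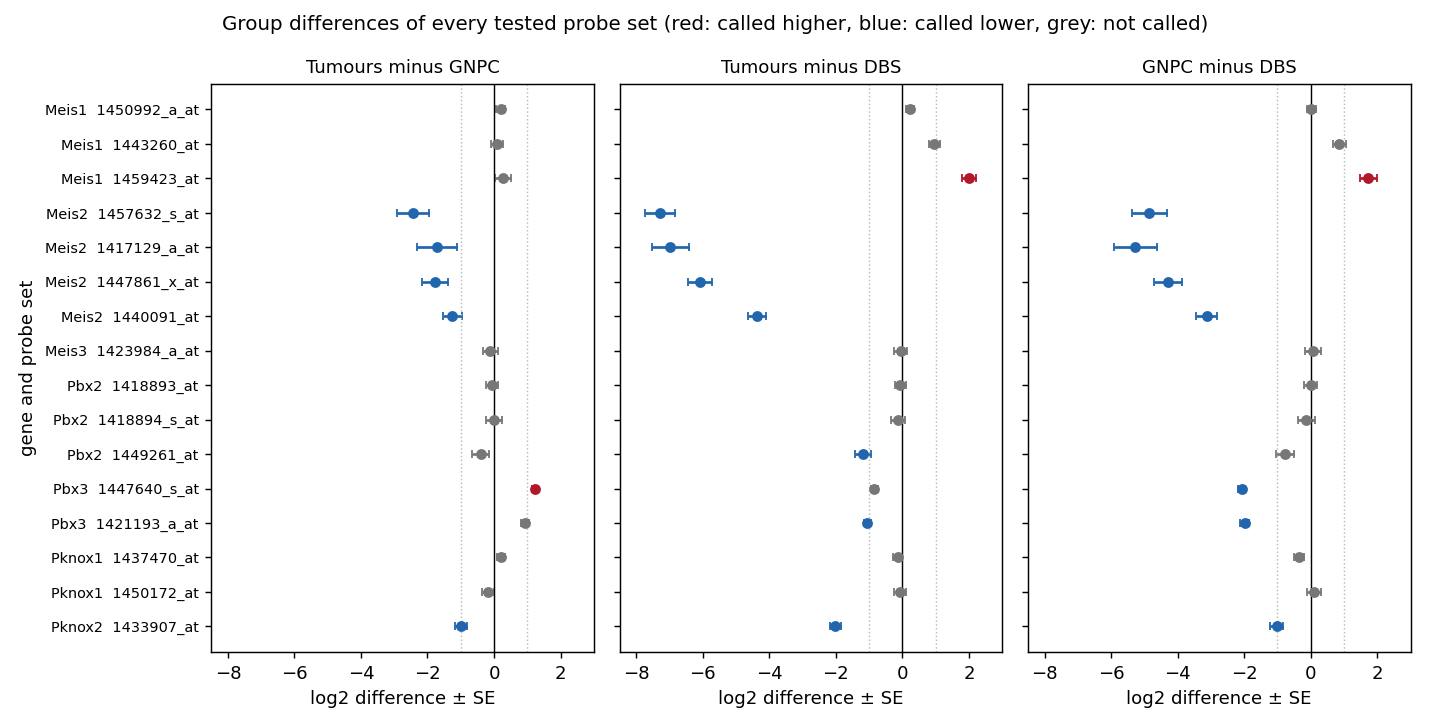
Log2 difference ± SE (limma) of each of the 16 tested probe sets, with 1 panel per comparison, dotted lines at a 2-fold change, and red, blue and grey for called higher, called lower and not called. The 4 Meis2 probe sets lie on the lower side in every panel, Pbx3 changes side between the panels, and only the Meis1 probe set 1459423_at is called higher against DBS.

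The Pknox family held 1 gene called in every comparison and 1 called in none. Pknox2 was measured by probe set 1433907_at, on which the tumours ranged from 220.6 through a median of 276.85 to 426.1. The GNPC samples were at 663.3, 567.6 and 584.3, and the DBS samples at 1051.9, 1121.4, 1349.9 and 1502.1. The order from DBS through GNPC to the tumours held without overlap between groups. Limma gave log2 differences of -1.001 ± 0.18 for tumours minus GNPC (2.001-fold, adjusted p = 0.000332), -2.02 ± 0.16 for tumours minus DBS (4.06-fold, adjusted p = 4.16e-08) and -1.02 ± 0.19 for GNPC minus DBS (2.03-fold, adjusted p = 0.000626).

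Both differences of Pknox2 that stand at 2-fold lost their call easily, because the size and not the p crossed the threshold. Tumours minus GNPC was -0.77 when arrays were brought to 1 median, -0.86 after quantile normalization and -0.84 with 100 added, and it was under 2-fold without tumour 1, 3, 4 or 5 or without the first GNPC sample (-0.99 to -0.92). GNPC minus DBS was -0.93 with 100 added, and it was under 2-fold without GNPC sample 2 or 3 or without DBS sample 3 or 4 (-0.998 to -0.93). The other Pknox2 probe set, 1428017_at, was at 2.8 to 27.4 in the tumours, 29.7 to 40.5 in GNPC and 35.9 to 60.3 in DBS, below the array median on every array and not tested.

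Pknox1 was nearly level on probe set 1437470_at. The tumours ranged from 646.2 through a median of 768.25 to 941.4, the GNPC samples were at 617.8, 648 and 755.8, and the DBS samples at 788.6, 932.4, 842.7 and 898.3. The tumours overlapped both normal tissues, whereas all GNPC values were below all DBS values. Its log2 differences were 0.21 ± 0.13, -0.15 ± 0.12 and -0.36 ± 0.14 for tumours against GNPC, tumours against DBS and GNPC against DBS (limma, adjusted p = 0.204, 0.288 and 0.0556). A second probe set, 1450172_at, was called in no comparison either, and the third, 1421233_at, was below the array median everywhere (35.2 to 94.1).

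Counted by probe set, 1 of the 16 was called higher and 5 lower in the tumours than in GNPC, where 18.3% of 25881 probe sets were called, 5.61% higher and 12.6% lower. Against DBS it was 1 higher and 7 lower in the tumours, with 34.2% called (16.0% higher, 18.2% lower), and 1 higher and 7 lower in GNPC, with 17.5% called, 9.55% higher and 7.94% lower. Among the 7 tested genes, the groups were apart without overlap for 3 in tumours against GNPC, 3 in tumours against DBS and 4 in GNPC against DBS, beside 44.9%, 56.1% and 55.9% of all genes tested. Meis2 supplied 4 of the lower probe sets in each comparison, so the counts do not stand for as many separate genes. These 4, and Pbx2 1449261_at, passed the filter only through DBS, which favours lower calls against DBS. The lower calls against DBS also included both Pbx3 probe sets in GNPC.

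The paralogs were next set against each other within each array, which removes any factor that scales a whole array apart from its effect through the added constant. The log2 ratio of 2 probe sets has no meaning as a level, and its change between groups shows only that the genes changed unequally. Of the pairs within a family, 5 had both genes past the filter, and each was tested in 3 comparisons by an exact two-sided permutation test over samples, with p adjusted over the 15 tests. Every test that passed had the smallest p its design allows, 0.0119 for 6 against 3 samples, 0.00476 for 6 against 4 and 0.0286 for 3 against 4. The adjusted values were 0.0223, 0.0179 and 0.0357. In each comparison 4 of the 5 pairs passed. Meis1 against Meis2 and Meis2 against Meis3 both rest on Meis2. As Meis2 passed the filter only through DBS, a difference against DBS was favoured in advance in both pairs. The share of other gene pairs that would pass was not computed. Single genes did not overlap in 44.9%, 56.1% and 55.9% of all genes tested, so the count is not read as a result about paralogs.

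The ratio of Meis1 to Meis2 differed most. On the log2 scale it was 5.81, 6.63, 5.98, 5.33, 6.71 and 6.60 in tumours 1 to 6, 1.88, 3.41 and 5.31 in GNPC, and -1.39, -1.58, -1.05 and -1.34 in DBS. The third GNPC sample came close to tumour 4, and the groups did not overlap. The ratio was higher in the tumours by 2.64 than in GNPC and by 7.52 than in DBS, and higher by 4.87 in GNPC than in DBS. Meis2 against Meis3 mirrored this, with differences of -2.33, -7.24 and -4.91, since Meis3 itself was nearly level. The third pair of the family, Meis1 against Meis3, overlapped in all 3 comparisons, with differences of 0.31, 0.28 and -0.04 (exact permutation p = 0.44, 0.395 and 0.914).

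Pbx2 against Pbx3 and Pknox1 against Pknox2 passed in all 3 comparisons as well. The ratio of Pbx2 to Pbx3 was lower in the tumours than in GNPC by 1.29 (log2 difference -1.29) and higher than in DBS by 0.78, and it was higher in GNPC than in DBS by 2.07. In this pair the tumours sat between the normal tissues. The ratio of Pknox1 to Pknox2 was 1.38, 0.58, 1.63, 1.45, 1.61 and 1.51 in tumours 1 to 6, -0.10, 0.19 and 0.36 in GNPC, and -0.41, -0.26, -0.67 and -0.73 in DBS. It was highest in the tumours, by 1.21 over GNPC and 1.88 over DBS, and higher in GNPC than in DBS by 0.67. Tumour 2, which had the highest Pknox2 of the tumours, had the lowest of their ratios.

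**Figure D4:**
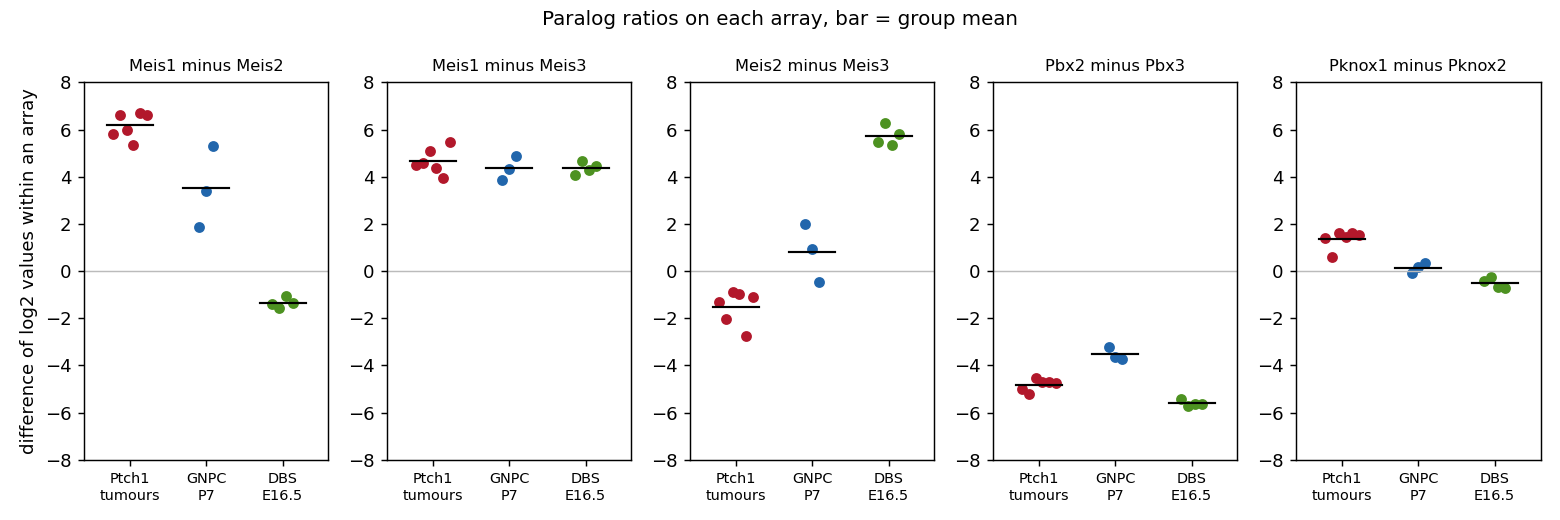
Log2 difference between 2 paralogs of a family within each array, with 1 point per array and a bar at each group's mean, for the 5 pairs tested. Meis1 minus Meis2 falls from 5.33 to 6.71 in the tumours to -1.58 to -1.05 in DBS, Meis1 minus Meis3 overlaps in all groups, and Pbx2 minus Pbx3 places the tumours between GNPC and DBS.

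Among the 6 tumours, the coefficient of variation was 9.28% for Pbx3 on 1447640_s_at, 13.9% for Pknox1, 17.4% for Meis1 on 1450992_a_at, 22.1% for Pbx2, 23.1% for Meis3 and 23.4% for Pknox2. The dim Meis2 stood at 56.3%. Tumour 5 was the lowest of the 6 on all 3 Meis1 probe sets, on Meis2 1457632_s_at, on both Pbx3 probe sets and on Pknox2 1433907_at. Its array median, 91.4, was also the lowest of the 13. It was not low throughout: tumour 5 was the highest of the 6 on Meis3 (167), and it was at 188 on Pbx2 1418893_at and 49.9 on Pbx4 1449916_at, within the range of the others.

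The genes whose pattern over the 13 samples was most like that of each called member were found by the root mean square difference of centred log2 values, as a description with no test. For Meis2, which itself varied by 3.22 around its mean on this measure, they were Gabra5 (0.597), Cbln2 (0.637) and Zcchc12 (0.758). Gabra5, a subunit of the GABA-A receptor, had mean intensities of 9.87 in the tumours, 124 in GNPC and 2134 in DBS. For Pbx3 (0.761) they were Tusc1 (0.243), Zfp503 (0.246) and Rragd (0.264). Tusc1 had means of 1020, 438 and 1626, the same order as Pbx3. For Pknox2 (0.9) they were Wdr7 (0.156), B930095G15Rik (0.181) and Bmp2 (0.183), the last a bone morphogenetic protein with means of 24.1, 67.4 and 154.

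The other TALE homeobox genes, which do not belong to the families above, were described by a list of 9, of which 6 were tested. For tumours against GNPC 1 was called higher and 1 lower, for tumours against DBS 2 and 2, and for GNPC against DBS 2 and 1, with medians of -0.23, -0.49 and -0.26. Over all genes tested, 20.8%, 36.3% and 18.4% were called in these comparisons, so the counts are not read as a result about this list. Tgif1, which encodes a repressor of retinoid and TGF-beta signalling, had 593 ± 171 (SD, n = 6) in the tumours, 159 ± 50.3 (n = 3) in GNPC and 39.3 ± 17.7 (n = 4) in DBS. It was 3.43-fold above GNPC and 10.7-fold above DBS (limma, adjusted p = 8.21e-05 and 1.14e-08). Tgif2, its relative, was 5.94-fold above DBS, and Irx3 was 2.43-fold below GNPC and 5.61-fold below DBS. Irx2 was 2.23-fold below DBS in the tumours.

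HOX proteins of the anterior paralog groups are the classic partners of these complexes in the hindbrain, and their genes were mostly bright in DBS and dim elsewhere. Of 15 Hox genes of paralog groups 1 to 5, 11 were tested. Limma called 0 of 11 between tumours and GNPC, with 0 at an unadjusted p under 0.05, and all 11 lower in the tumours and in GNPC than in DBS, with median differences of -4.52 and -4.54. Apart from Hoxa2 in tumour 1, every value of the 11 genes outside DBS was below its array's median. The genes thus passed the filter through DBS, which favoured lower calls against DBS in advance. Tumours against GNPC mostly compared dim values with dim values. Hoxa5 was at 2.4 to 17.1 in the tumours, 5.7 to 9.2 in GNPC and 5534.1 to 8334.3 in DBS. Hoxb5 was at 1.1 to 20.8 outside DBS and 4637.1 to 7597.3 in DBS. Outside DBS both lay near or below the added constant of 18, which would set the size of any fold, so none is given. The summed intensity of the 13 Hox genes with a probe set was 82.3 to 1022.3 in the tumours, 154.9 to 211.9 in GNPC and 23055.2 to 33145.7 in DBS. Tumour 1 made the top of the tumour range through Hoxa2, singled out after its values were seen. Hoxa2 was at 827 in tumour 1, above the 386.9 to 544.5 of DBS, and at most 24.6 in the other tumours. Against DBS, Meis2 was lower in both the tumours and GNPC as this list was, whereas Meis1 on 1450992_a_at was not called in either. For Meis2 and for this list alike, the filter favoured that outcome.

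Of 10 other known protein partners of PBX or MEIS, 7 were tested. Between tumours and GNPC limma called 0 higher, with 0 at an unadjusted p under 0.05, and 1 lower, En2, an engrailed protein of the midbrain and anterior hindbrain (log2 difference -1.05). Against DBS 3 were called higher in the tumours and 1 lower: En2 (1507 against 23.8, the latter near the added constant), Pax6, a transcription factor of granule neuron precursors, by 9.61-fold, and Klf4 lower by 2.03-fold. The third higher one was Hdac1, which the naming rule did not select. GNPC stood above DBS in the same 3 genes, with En2 at 3125 against 23.8 and Pax6 15.0-fold higher. The list medians were -0.26, 0.39 and 0.25, and 20.8%, 36.3% and 18.4% of all genes were called in these comparisons.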

How the data were processed

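RNA of 13 samples was hybridised to Affymetrix mouse arrays of 45101 probe sets, 1 array per sample. The authors deposited linear intensity values. The submitters' processing notes name MAS5 without version or role. The values ran from 0.1 to 37660.4, and each array had the same mean after trimming 2% at each end. Detection calls were not used here. Gene symbols came from the platform annotation, and all 20 probe sets matched RefSeq's gene table by gene identifier.

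Source names in the labels gave the groups. Samples were numbered by accession, so the numbers pair nothing. No batch is named in the labels, and a batch effect therefore cannot be told apart from a group effect.

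Values were tested as log2(intensity + 18), where 18 is the 20th percentile of all values, so folds of dim genes are understated. One limma model (R 4.3.3, limma 3.58.1, lmFit and eBayes with an intensity trend) was fitted to all samples, with Benjamini-Hochberg adjustment over 12266 genes or 25881 probe sets. Among the probe sets past the filter, the brightest on average stood for its gene. The procedure was tested on simulated data. Array scaling, added constant, filter, probe set choice, samples in the fit and variance prior were varied, and each sample was left out in turn.

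The named genes were all members, the 3 genes most like each called member, and the 2 called genes with the largest difference per list, comparison and direction. The members and lists were chosen with earlier results of these data known.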

Additional observations from a re-analysis of the deposited data

Results flagged for a closer look

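In 40 groups of 4 or 6 values of the 20 probe sets, 2 held a sample far from the others by Dixon's test at 95%, beside a chance rate of about 1 in 20. The second DBS sample had an intensity of 2.6 on the Pbx4 probe set 1454912_at, with a gap to the next sample of 0.946 of the group's range. Tumour 1 had an intensity of 118.9 on the Pknox1 probe set 1450172_at, with a gap of 0.702 of the range. Neither probe set carries a call, and the Pbx4 probe set lay below the array median on every array.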

How the results depend on the processing

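The number of members called stayed at 2 or 3 in every comparison under all alternatives run, and Meis2 and Pbx3 kept each of their calls where they were tested. In a fit of tumours and GNPC alone, Meis2 did not pass the filter and 6 members were tested. Without probe sets ending in _s_at, _x_at or _a_at, 5 members were tested and 2 paralog pairs passed in each comparison, the only 2 pairs that had both genes. Leaving out single samples gave 0 to 4 pairs passing between tumours and GNPC, and 0 between GNPC and DBS without any one sample, since fewer samples raise the smallest p that the permutation test allows.

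Signs turned only among differences that were near 0 with the settings above, though some of them moved farther from 0. With arrays brought to 1 median, Meis1 was -0.095 and Meis3 -0.043 between GNPC and DBS, Meis3 was 0.062 and 0.11 in the tumours against DBS and GNPC, and Pbx2 was -0.11 between GNPC and DBS, 0.057 between tumours and DBS and 0.16 between tumours and GNPC. After quantile normalization Meis3 was -0.037, 0.054 and 0.091 between GNPC and DBS, tumours and DBS, and tumours and GNPC, Pbx2 was -0.14 between GNPC and DBS and 0.13 between tumours and GNPC, and the Meis1 to Meis3 ratio was 0.12 between GNPC and DBS. With probe sets averaged, Pbx2 was -0.30 and that ratio 0.81. Leaving out single samples gave ranges of -0.075 to 0.11 for Meis1, -0.096 to 0.22 for Meis3, -0.11 to 0.077 for Pbx2 and -0.29 to 0.21 for the ratio between GNPC and DBS, -0.15 to 0.053 for Meis3 and -0.13 to 0.028 for Pbx2 between tumours and DBS, and -0.27 to 0.049 for Meis3 and -0.14 to 0.052 for Pbx2 between tumours and GNPC. The cause was not tested.

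Bringing arrays to 1 median moved the middle difference of all genes between tumours and GNPC from -0.03 to 0.21, and the calls from 809 higher and 1742 lower to 1307 and 1375. It moved that between tumours and DBS from 0.00 to 0.13 and that between GNPC and DBS from 0.04 to -0.07. No paired analysis was possible because the labels carry no replicate numbers. Probe sets below the array median, among them Pbx4 and Meis2 in the tumours, limit what can be said of their size.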

Other observations

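Retinoic acid is known to induce Meis and Hox genes, and 10 of 14 genes of its pathway were tested. Between tumours and GNPC limma called 0 higher, with 2 higher at an unadjusted p under 0.05, and 3 lower. Cyp26b1, an enzyme that degrades retinoic acid, had 48.3 ± 24.1 (SD, n = 6) in the tumours and 429 ± 60.6 (n = 3) in GNPC, 7.16-fold lower on the log2(intensity + 18) scale (adjusted p = 2.07e-05). The receptor gene Rxrg was 3.95-fold lower, and Crabp2, which encodes a cellular retinoic acid binding protein, was the third. Between tumours and DBS 1 gene was called higher and 5 lower. The retinaldehyde dehydrogenase gene Aldh1a1 was 5.50-fold higher in the tumours, Crabp1 16.9-fold lower and Rxrg 6.57-fold lower. In GNPC against DBS, Aldh1a1 was higher by 2.54 on the log2 scale, and Crabp1 and Rarb differed by -3.51 and -1.82. Crabp1, Crabp2 and Rxrg were above the array median on fewer than 3 arrays outside DBS, so they passed the filter only through DBS. That favoured their lower calls against DBS in advance. In the tumours Crabp1 reached at most 106.9 and Rxrg at most 67.2, so the added constant shapes their folds. The list medians were -0.52, -1.12 and -0.23, and 20.8%, 36.3% and 18.4% of all genes were called in these comparisons.

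Over the 6 tumours, Meis1 on 1450992_a_at was set against 7 partner genes after the values had been seen. Its correlation with Pax6 was r = -0.874 (exact permutation p = 0.025, adjusted p = 0.121 over 7 relations) and rho = -0.771 (exact permutation p = 0.103). Without tumours 5 and 6, the farthest from the Meis1 median, r was -0.826 over 4 tumours. Hdac3 had r = -0.838 (exact permutation p = 0.0347, adjusted p = 0.121) and rho = -0.771, and r = -0.668 without those tumours. None of the 7 passed the adjustment.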
